A study of Artemia parthenogenetic lineage with 6 samples.

Results

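The gene models examined here had almost no reads in diapausing brine shrimp cysts (Artemia parthenogenetic lineage) and were read in every library 5 h after embryonic diapause termination (EDT). They were chosen by their raw read counts, with at most 5 reads in each of the 3 diapause libraries (ArD_0h) and at least 10 reads in each of the 3 libraries at 5 h (ArR_5h). This rule picked 55 of 16591 gene models, or 0.332%. Since the counts of all 6 libraries chose the models, their rise from 0 h to 5 h is given as a description and not as a result of a test.

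All cysts were labelled wild type and whole cysts were used as the tissue. ArD_0h cysts, in diapause, carry the treatment label of untreated. ArR_5h cysts had been rehydrated in ice-cold artificial seawater of 30‰ salinity and then kept at 28 °C in continuous light. The protocol text attached to both groups names drying, refrigeration and rehydration, and which of these steps the ArD_0h cysts went through was not clear from it, so that these steps, the incubation and time cannot be told apart. Cysts of both groups came from the same batch. The 3 libraries of a group were described as biological replicates, but no source says that they came from separate cultures, and errors may therefore be partly technical. The libraries held 9992823 to 13505892 counted reads, so that 3 reads corresponded to 0.226 to 0.299 CPM (read counts scaled to the library size).

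An Artemia cyst is an embryo arrested at the gastrula stage inside a hard shell. Diapause cysts carry a store of messenger RNA laid down before arrest, and RNA synthesis and development resume after diapause ends. The levels measured here are those of whole embryos, in which fewer cells with a transcript and less RNA per cell cannot be told apart.

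The models were scarcely read at 0 h, though each had at least 1 read there. Whether such few reads came from transcripts of these models was not tested. None of the 55 had 0 reads in all ArD_0h libraries. A total of 38 models had reads in each ArD_0h library, 14 had 0 reads in 1 of them and 3 had 0 reads in 2 of them. The summed ArD_0h reads of a model ran from 1 to 14, with a median of 8. At 5 h the summed reads ran from 34 to 191, with a median of 57, and no ArR_5h library had more than 68 reads of any of these models. The rule guarantees that the counts of the groups do not overlap in any of the 55 models, so nothing can be read from this. The share of all models without such overlap was not computed. By another measure, the fit over all models given below, 14.3% of all tested models were up-regulated at 5 h. That share uses limits on fold change and adjusted p, so it is no baseline for counts without overlap.

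A switch from 0 reads was not seen at the limits used. There were 2043 models with 0 reads in all ArD_0h libraries, of which 296 had any read at 5 h. None of the 2043 had more than 6 reads in its lowest ArR_5h library, and the highest count of any in a single ArR_5h library was 12. The model with most reads at 5 h among them, evm.TU.ctg444.3 of 202 bases, had 8, 7 and 6 reads in ArR_5h replicates 1, 2 and 3 (it is named after its values were seen). In the reverse direction, the 2017 models with 0 reads in all ArR_5h libraries had at most 4 reads in their lowest ArD_0h library.

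Few models that were scarce at 0 h became clearly present. Of the 3487 models with at most 5 reads in each ArD_0h library, 3074 also had at most 5 reads in each ArR_5h library, including 1747 with no read in any library. A further 358 exceeded 5 reads in at least 1 ArR_5h library without meeting the rule, and the 55 models were 1.58% of the 3487. They were 0.485% of the 11342 models with at least 10 reads in each ArR_5h library. The reverse rule, at least 10 reads in each ArD_0h library and at most 5 in each ArR_5h library, held for 46 models.

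**Figure D1:**
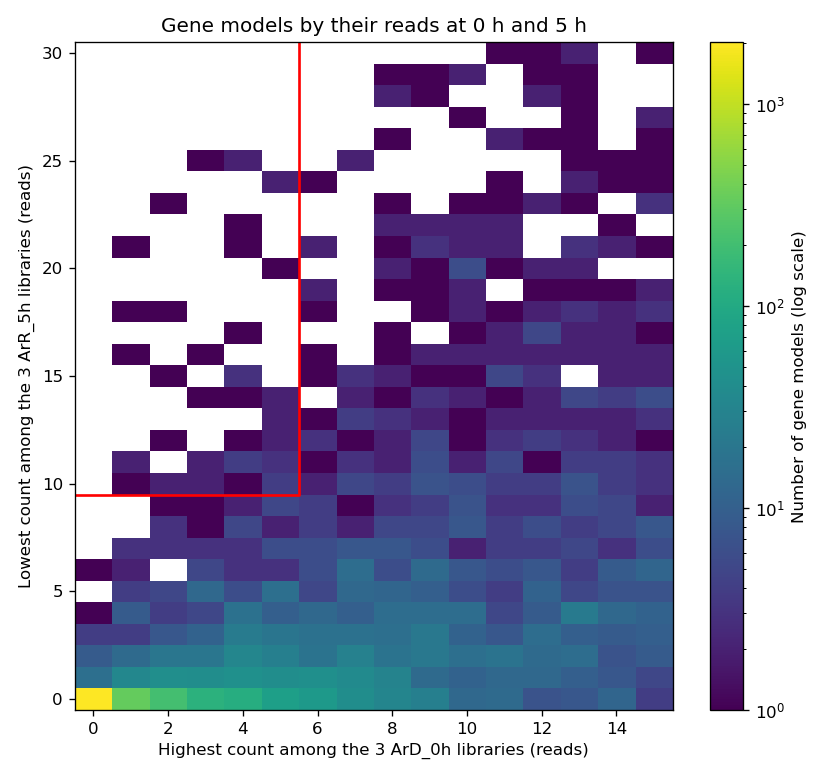
Number of gene models (colour, log scale) by their highest count in the 3 ArD_0h libraries (x axis, reads) and their lowest count in the 3 ArR_5h libraries (y axis, reads), for models within the axes only. The red line bounds the corner of the rule, which is thinly filled and holds no model in its leftmost column, at 0 reads in every ArD_0h library. The 5 models of the set with at least 30 reads in each ArR_5h library lie above the y axis shown.

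In all, the 55 models held few reads. In ArD_0h replicates 1, 2 and 3 they had 126, 134 and 144 reads together. In ArR_5h replicates 1, 2 and 3 they had 1206, 1246 and 1101 reads together. Relative to the library totals, with no TMM factors, this was 11.9 ± 1.28 CPM at 0 h and 107 ± 17.5 CPM at 5 h (SD, n = 3). No model dominated this sum, as the one with most reads, evm.TU.ctg60.15, gave 5.38% of the ArR_5h reads.

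Per length, the models were weakly expressed at 5 h as well. Their mean FPKM (fragments per kilobase of model, scaled to library size) at 5 h ran from 0.275 to 10.3 with a median of 1.93, against 0.0114 to 0.878 with a median of 0.309 at 0 h. It was below 2 FPKM in 28 models and above 5 FPKM in 5. For comparison, the median of the 11342 models with at least 10 reads in each ArR_5h library was 13.5 FPKM at 5 h. The median of the 55 stood at the 9.50th percentile of these models and the highest of the 55 at the 43.7th percentile. The rule sets no upper limit on the reads at 5 h.

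The evm models of the set carry the identifiers of the reference annotation, in which evm.TU is the prefix of the gene predictor EVidenceModeler, followed by the contig and the running number of the model. There were 24 such models and 1 that joins a pair of identifiers. The other 30 models, called non-evm models, have identifiers outside this scheme and are referred to by their length. The study names a few evm models in its text, none of which was in the set or adjacent to one of its models, and no names were at hand for the models of the set. The GO annotations given by the study cover only models that changed alike in chromatin accessibility and RNA in its comparisons of sampling times. Absence from this list therefore does not mean that a model lacks an annotation. Of these annotations 567 listed models were readable, of which 1 was in the set. That model was evm.TU.ctg117.8, with the terms binding and protein binding, which do not give its role. Markers of the cyst embryo could therefore not be looked up by name.

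**Figure D2:**
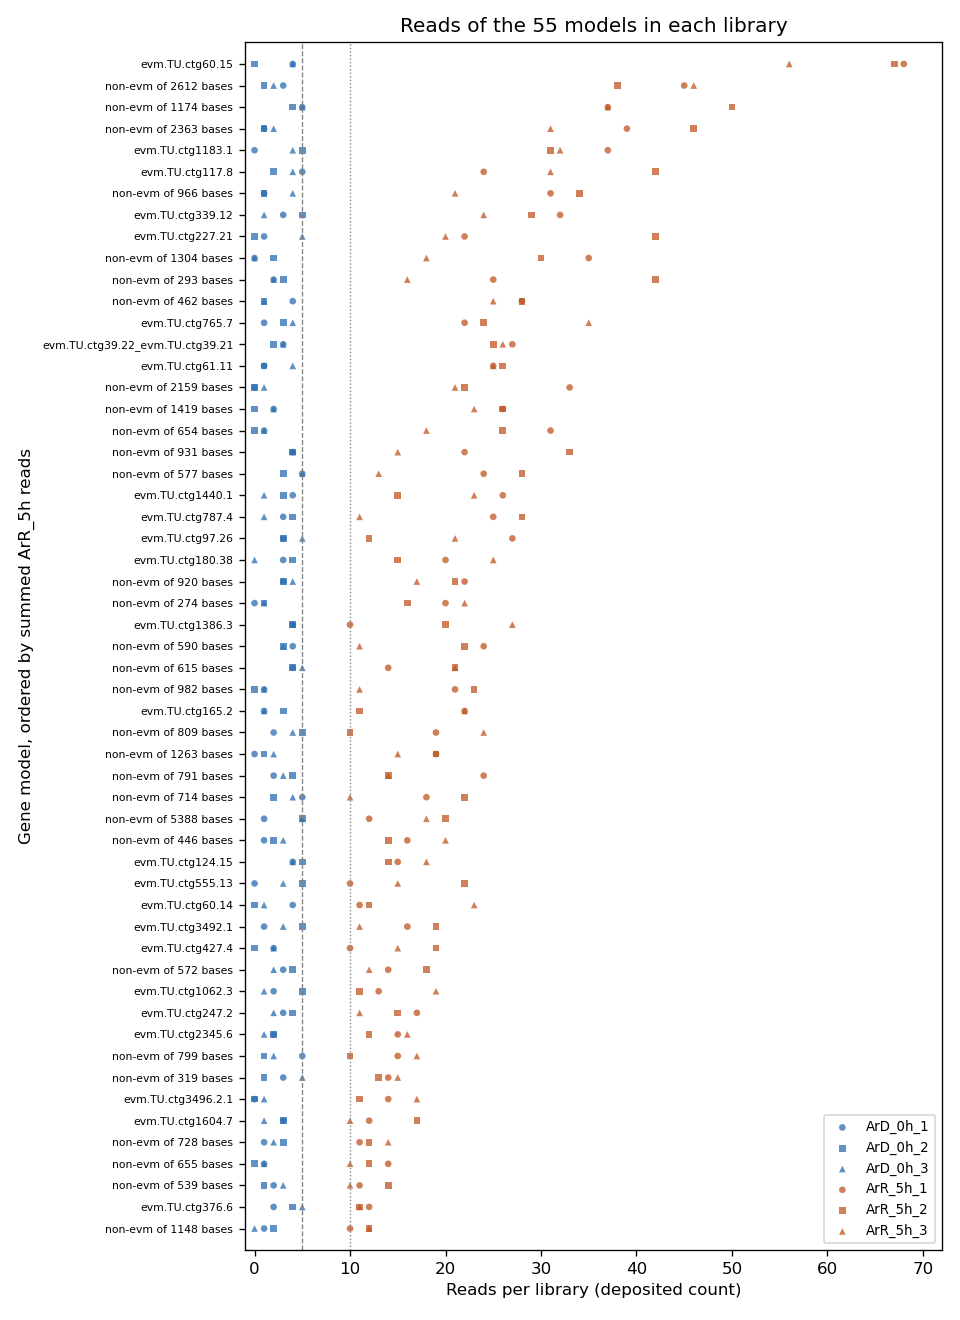
Deposited read counts (x axis) of the 55 models (y axis, ordered by summed ArR_5h reads) in the 3 ArD_0h libraries (blue) and the 3 ArR_5h libraries (orange), with the limits of 5 and 10 reads as broken lines. In 17 models every ArR_5h count is below 20 reads, and evm.TU.ctg60.15 lies at the top with 68, 67 and 56 reads.

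The most frequently read model of the set was evm.TU.ctg60.15, of 654 bases. It had 4, 0 and 4 reads in ArD_0h replicates 1, 2 and 3, and 68, 67 and 56 reads in ArR_5h replicates 1, 2 and 3. Its level rose from 0.340 ± 0.300 FPKM to 8.63 ± 1.16 FPKM (SD, n = 3). The ratio of the scaled reads was 23.9, with a 95% counting interval of 11.9 to 56.2. Here and below the interval is the exact binomial (Clopper-Pearson) one for the summed reads of the groups, scaled to their totals. It covers at most the counting error of reads and leaves out the spread between libraries. The model adjacent to it on the contig, evm.TU.ctg60.14 of 477 bases, was also in the set, with 4, 0 and 1 reads at 0 h and 11, 12 and 23 reads at 5 h. These were the only evm models of the set that are adjacent on a contig. Among the ArR_5h libraries evm.TU.ctg60.14 was highest in replicate 3, where evm.TU.ctg60.15 was lowest. This order rests on few reads and was not tested.

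The highest level per length belonged to evm.TU.ctg227.21, a short model of 244 bases. Its reads were 1, 0 and 5 at 0 h and 22, 42 and 20 at 5 h, in replicates 1, 2 and 3. This gave 10.3 ± 5.08 FPKM at 5 h (SD, n = 3), with ArR_5h replicate 2 far above the others, and a ratio of 14.0 (95% counting interval 6.18 to 39.3). The non-evm model of 293 bases showed the same shape, with 2, 3 and 2 reads at 0 h and 25, 42 and 16 reads at 5 h, or 8.49 ± 4.50 FPKM at 5 h (SD, n = 3). These models had the largest coefficients of variation between ArR_5h libraries in the set, 50.1% and 53.8%. Neither reached the level of the median model read at 5 h.

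A smaller spread between the ArR_5h libraries was found in evm.TU.ctg1183.1 and evm.TU.ctg61.11. The first, of 610 bases, had 0, 5 and 4 reads at 0 h and 37, 31 and 32 reads at 5 h, or 4.83 ± 0.354 FPKM (SD, n = 3), at a ratio of 11.1 (95% counting interval 5.63 to 25.04). The second, of 465 bases, had 1, 1 and 4 reads at 0 h and 25, 26 and 25 reads at 5 h, or 4.83 ± 0.367 FPKM (SD, n = 3), at a ratio of 12.7 (95% counting interval 5.56 to 35.6). Their coefficients of variation (SD over mean, in CPM) between ArR_5h libraries were 7.78% and 8.37%. The joined model evm.TU.ctg39.22_evm.TU.ctg39.21, of 1460 bases, had a still smaller one at 3.49%. Its reads were 3, 2 and 3 at 0 h and 27, 25 and 26 at 5 h (named after its values were seen). All these coefficients lie below 22.9%, the median over the set of the theoretical value for Poisson counts. These models had more reads at 5 h than the median model of the set, so their own Poisson values are lower than that. They are low values picked from many, and a steady level of these models was not tested.

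Other evm models of the set were closer to the limit or more spread. The annotated evm.TU.ctg117.8 had 5, 2 and 4 reads at 0 h and 24, 42 and 31 reads at 5 h, a ratio of 8.83 (95% counting interval 4.72 to 18.3). For evm.TU.ctg765.7 the reads were 1, 3 and 4 at 0 h and 22, 24 and 35 at 5 h, and for evm.TU.ctg339.12 they were 3, 5 and 1 at 0 h and 32, 29 and 24 at 5 h. Both models thus had at least 22 reads in every ArR_5h library. The reads of evm.TU.ctg1062.3 were 2, 5 and 1 at 0 h and 13, 11 and 19 at 5 h. In evm.TU.ctg1386.3, with 4 reads in each ArD_0h library, the ArR_5h replicates 1, 2 and 3 had 10, 20 and 27 reads, so that its lowest value lay on the limit.

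The non-evm models with most reads at 5 h were those of 2612, 1174 and 2363 bases. The model of 2612 bases had 3, 1 and 2 reads at 0 h and 45, 38 and 46 reads at 5 h, a ratio of 21.5 (95% counting interval 9.62 to 59.7). Reads of the model of 2363 bases were 1, 1 and 2 at 0 h and 39, 46 and 31 at 5 h, at a ratio of 29.04 (95% counting interval 11.04 to 108). In the model of 1174 bases they were 5, 4 and 5 at 0 h and 37, 50 and 37 at 5 h. Per length the models of 2612 and 2363 bases were at only 1.45 ± 0.0763 FPKM and 1.46 ± 0.353 FPKM at 5 h (SD, n = 3), and that of 1174 bases at 3.14 ± 0.747 FPKM (SD, n = 3). The model of 966 bases had 1, 1 and 4 reads at 0 h and 31, 34 and 21 reads at 5 h.

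The deepest scarcity at 0 h was found in 9 models with 1 to 3 reads over the 3 ArD_0h libraries together, of which 8 were non-evm models (they are named after their values were seen). The non-evm model of 2159 bases had 0, 0 and 1 reads at 0 h and 33, 22 and 21 reads at 5 h. Its ratio of 76.1 was the highest of the set, but its 95% counting interval, 13.3 to 3045, shows how little the 0 h level was known. The evm.TU.ctg3496.2.1 model had 0, 0 and 1 reads at 0 h and 14, 11 and 17 reads at 5 h, a ratio of 42.1 (95% counting interval 7.15 to 1700.0). In the non-evm model of 1304 bases the reads were 0, 2 and 0 at 0 h and 35, 30 and 18 at 5 h, and in that of 654 bases they were 1, 0 and 1 at 0 h and 31, 26 and 18 at 5 h. In all 9 models the lower end of the interval was above 3. These models were chosen by the rule and again by their few reads at 0 h. Their high ratios and lower ends follow in part from that choice and are a description only.

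Across the 55 models the ratio ran from 3.09 to 76.1, with a median of 8.61, and it exceeded 10 in 22 models. The lower end of the counting interval was above 2 in 53 of the 55. The same counts chose the models, so high ratios and lower ends follow in part from the rule. The intervals make no allowance for that choice, and these counts are a description only. The evm and joined models had a median ratio of 8.61 and the non-evm models of 8.61 as well. The medians of FPKM at 5 h, 2.25 for evm and joined models and 1.93 for non-evm models, were also close. A test of these differences was not run.

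A fit over all models (edgeR's quasi-likelihood test) gives these models on the log2 scale. Of the 55, 41 had enough reads to be tested, and 14 were removed with the other low-count models. All 41 were called up-regulated (log2 fold change above 1 with an adjusted p up to 0.05), beside 14.3% of all 11959 tested models. Nothing can be read from this count, because the fit and the rule used the same reads. The log2 fold changes of the 41 ran from 1.82 to 5.80 with a median of 3.12, beside a median of −0.01 over all tested models and of 1.43 over the 1668 other up-regulated models. Of the 42 up-regulated models with a log2 fold change over 3, 25 were in the set. The rule favours large fold changes, so these comparisons with other models follow in part from it and are a description only. The largest was 5.80 ± 0.66 (SE) in the non-evm model of 2159 bases, that of evm.TU.ctg60.15 was 4.52 ± 0.45 (SE), and the smallest was 1.82 ± 0.38 (SE) in evm.TU.ctg124.15. With so few reads at 0 h, fitted values depend on the prior count of the fit.

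The limits cut through a continuous distribution of counts. Within the set, 18 models had exactly 5 reads in their highest ArD_0h library, and 15 models outside it had 6 there with at least 10 reads in each ArR_5h library. The number of models moved with the limits and the libraries: 86 met the rule without ArD_0h replicate 3, and 36 met it after reads were scaled to the TMM-effective totals. Just inside the limit at 0 h stood evm.TU.ctg124.15, with 4, 5 and 4 reads at 0 h and 15, 14 and 18 at 5 h, and just outside evm.TU.ctg2054.3, with 4, 6 and 0 reads at 0 h and 16, 10 and 17 at 5 h. A non-evm model of 2158 bases, also just outside, had 6, 1 and 5 reads at 0 h and 13, 10 and 28 at 5 h. At the other limit, 10 models had exactly 10 reads in their lowest ArR_5h library, and 9 models with at most 5 reads at 0 h had 9 there. The non-evm model of 1148 bases lay just inside, with 1, 2 and 0 reads at 0 h and 10, 12 and 12 at 5 h. A non-evm model of 504 bases lay just outside, with 0, 2 and 0 reads at 0 h and 9, 16 and 17 at 5 h. The non-evm models of 539 bases, with 11, 14 and 10 reads at 5 h, and of 427 bases, with 20, 10 and 9, lay on either side in the same way. Only 15 models of the set had at least 20 reads in each ArR_5h library, and only evm.TU.ctg60.15 had at least 50.

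What the rule did not use was the kind of model. Non-evm models were 30 of the 55 (54.5%), beside 21.6% of the 14844 models with reads, 19.3% of the 3487 models with at most 5 reads in each ArD_0h library and 19.2% of the 11342 models with at least 10 reads in each ArR_5h library. They were 16.7% of the other up-regulated models. The reverse rule gave a similar mixture, with 21 non-evm models of 46 (45.7%), so that a high share was seen in both directions. These shares are descriptions over models, which are not independent replicates.

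The models had a median length of 809 bases, with quartiles of 574.5 and 1218.5 and a range of 244 to 5388. The median was 1158 bases over the 14844 models with reads and 894 over the 46 models of the reverse rule. Short length is thus not particular to the set. The 1740 models with reads and at most 5 of them in each ArD_0h library had a lower median, 594 bases. That of the 11342 models with at least 10 reads in each ArR_5h library was higher, at 1372.5 bases. A longer model collects more reads at the same level, so that both limits of the rule bear on length. Evm and joined models had a median of 855 bases and non-evm models of 795.

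**Figure D3:**
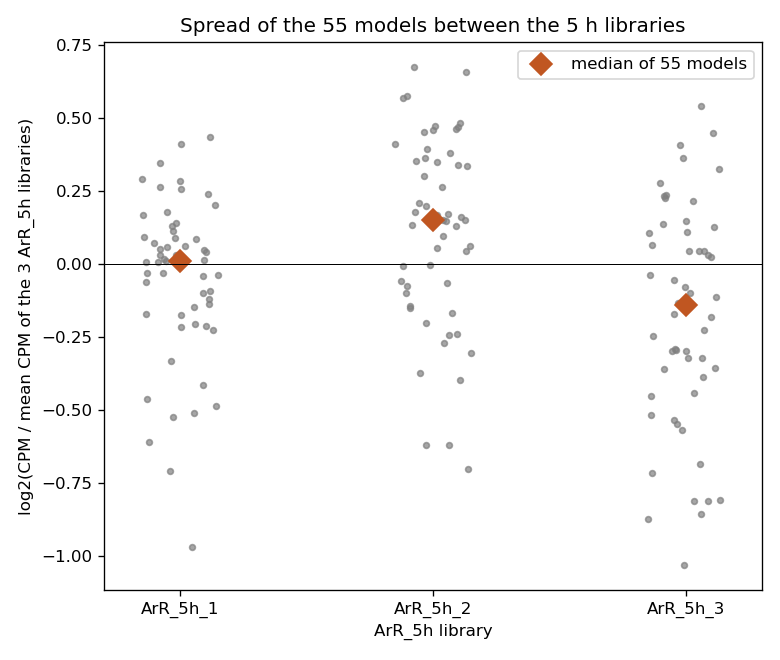
Level of each of the 55 models (grey points, spread sideways for legibility) in each ArR_5h library (x axis), as log2 of its CPM over its own mean across the 3 ArR_5h libraries (y axis), with the median as a diamond. The medians are 0.01 in replicate 1, 0.15 in replicate 2 and −0.14 in replicate 3.

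Between the ArR_5h libraries the coefficient of variation of CPM had a median of 24.6% over the 55 models, with a range of 2.96% to 53.8%. The theoretical coefficient of variation of Poisson counts with the mean reads of each model has a median of 22.9%. It is not the median to be met in values measured over 3 libraries, and the rule also removes low ArR_5h counts. The closeness of these medians therefore cannot be read as Poisson spread. In CPM the set summed to 104, 118 and 94.0 in ArR_5h replicates 1, 2 and 3, and to 11.9, 13.4 and 10.9 in ArD_0h replicates 1, 2 and 3. ArR_5h replicate 2 was the highest library in 29 of the 55 models and replicate 3 the lowest in 31. In the 1668 other up-regulated models, replicate 2 was highest in 52.3% and replicate 3 lowest in 56.6%. The median log2 ratio of replicate 3 to replicate 2 was −0.32 in the set and −0.23 in these other models. Over all tested models with at least 10 reads in each ArR_5h library it was −0.06, and these differences were not tested.

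The evm models of the set were scattered over the assembly. The 25 evm and joined models lay on 24 contigs, and 18 of them had at least 1 listed model adjacent in number. Without counting the pair on contig 60 itself, there were 24 adjacent models, of which 17 were tested. These neighbours are models that the rule, applied to all models, did not pick, so they are not free of its choice. Those described were named after their values were seen. Of the 17, 4 were up-regulated and 1 was down-regulated. Among the 9541 tested evm and joined models, 14.7% were up-regulated and 8.21% down-regulated. Among all tested models these shares were 14.3% and 10.7%. Both backgrounds include the tested models of the set, which the neighbours leave out. The share of 23.5% rests on 4 models, and 2 of these flank the same model. The median log2 fold change of the 17 was 0.38, from −1.74 to 2.94.

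**Figure D4:**
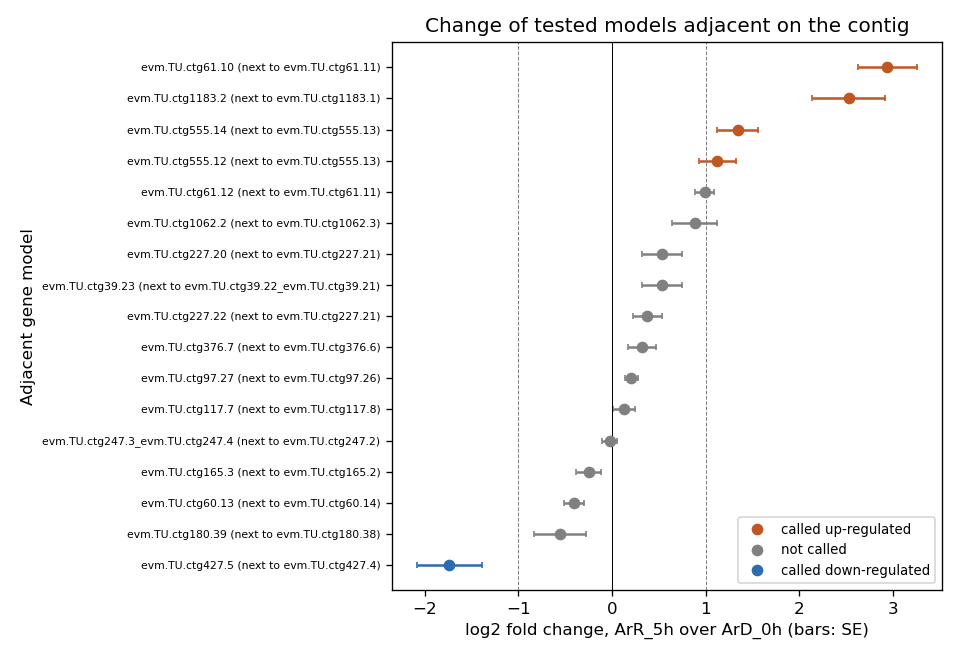
Log2 fold change from ArD_0h to ArR_5h (x axis, bars are SE from the edgeR fit) of the 17 tested models (y axis) adjacent in number on a contig to an evm or joined model of the set. The 4 up-regulated models (orange) lie at 1.12 to 2.94, the down-regulated model (blue) at −1.74, and the 12 that were not called (grey) between −0.56 and 0.99.

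The largest change among the tested neighbours was that of evm.TU.ctg61.10, next to evm.TU.ctg61.11. This model had 9, 7 and 5 reads in ArD_0h replicates 1, 2 and 3 and 64, 46 and 55 reads in ArR_5h replicates 1, 2 and 3, and so missed the set only by its 0 h reads. Its mean was 0.642 ± 0.242 CPM at 0 h and 4.86 ± 0.592 CPM at 5 h (SD, n = 3). The log2 fold change was 2.94 ± 0.32 (SE), with an adjusted p of 2.73e-05 in the edgeR fit. On the other side the log2 fold change of evm.TU.ctg61.12 was 0.99 ± 0.10 (SE; adjusted p = 1.95e-05 by edgeR), just under the limit of 1. Likewise evm.TU.ctg1183.2, beside evm.TU.ctg1183.1, had 5, 4 and 8 reads at 0 h and 40, 37 and 22 reads at 5 h and rose by 2.53 ± 0.39 on the log2 scale (SE; edgeR, adjusted p = 0.000276). Both neighbours of evm.TU.ctg555.13 were up-regulated, evm.TU.ctg555.12 by 1.12 ± 0.20 and evm.TU.ctg555.14 by 1.34 ± 0.22 on the log2 scale (SE). The model evm.TU.ctg427.5, beside evm.TU.ctg427.4, fell by 1.74 on the log2 scale (SE 0.35; edgeR, adjusted p = 0.00144). The abundant neighbours evm.TU.ctg117.7 and evm.TU.ctg97.27 had log2 fold changes of 0.13 ± 0.12 and 0.21 ± 0.07 (SE). Strand was not marked in these libraries, so reads from overlapping neighbours cannot be told apart.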

How the data were processed

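The members and lists were chosen with earlier results of these data known. RNA was measured in 3 ArD_0h and 3 ArR_5h libraries. The kit does not mark strand. Before deposit, the authors aligned paired reads to a genome of Artemia franciscana, another species of the genus, and counted reads per gene model. The submitters' processing notes name HISAT2 2.0.5 and featureCounts 1.5.0-p3. Whether featureCounts used strand is not given here by any source. The deposited counts are raw, whole numbers. The deposited FPKM values scale these counts by gene length and library size. All count and FPKM columns matched a label and 0 were left over. Model lengths were recovered by dividing counts by FPKM, and all 14844 came out whole within 0.01 bases.

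CPM was computed from the counts with TMM factors. The fit used edgeR 4.0.16 in R 4.3.3 on models that pass filterByExpr (minimum count 10, minimum total 15), with group as the only term, and was tested on simulated data. Calls needed a log2 fold change above 1 or below −1 and a Benjamini-Hochberg adjusted p up to 0.05. Standard errors are the log2 fold change over the square root of F. Ratios with counting intervals use summed reads scaled to the TMM-effective totals. These intervals treat each read as independent and leave out the spread between libraries. No molecular identifiers were used, so copies of the same molecule could not be told apart and the intervals may be too narrow. Adjacent evm models differ by 1 in their number on a contig.

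Named models were the evm or joined models highest in FPKM and the models highest in CPM at 5 h, 10 each, the adjacent pair, the annotated model, the steadiest and most variable models with at least 30 reads in each ArR_5h library, and those at the limits, beside the exceptions given. Alternatives were other scaling (RLE, totals), filters, a replicate block, DESeq2 1.42.0, limma-voom (limma 3.58.1), glmTreat, omitting each library or the 10 most abundant models, and other limits of the rule. The comparison of non-evm models by their numbers was added after seeing the data. Lists of gene names were not analysed here. Figures were drawn with matplotlib 3.10.9.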

Additional observations from a re-analysis of the deposited data

How the results depend on the processing

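The size of the set depended on its limits, and depth limits what can be said of its 0 h levels. It held 21 models at a limit of 3 reads at 0 h, 0 models at a limit of 0 reads, and 15 with at least 20 reads in each ArR_5h library. With reads scaled to the mean TMM-effective total it held 36, all of them among the 55, and with reads scaled to the mean library total 40, of which 39 were among the 55. With a library left out of the rule it held 64 to 86, with 86 without ArD_0h replicate 3, the deepest library, so 31 of those models were kept out by that library alone. No share of reads could be computed for models with 0 reads at 0 h.

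All tested models of the set were up-regulated in each fit run except glmTreat, which called 38 of 41 and lost evm.TU.ctg1062.3 and evm.TU.ctg124.15 among the named models. With no filter 55 of 55 were called, and with a library left out 45 to 55. The median log2 fold change of the set was 3.12, and became 3.02 with no filter, 3.20 at 1 CPM in 3 libraries and 3.19 with DESeq2; it ran from 2.69 (without ArD_0h replicate 3) to 3.22 when each library was left out. Over all models 2984 were called, 1359 with glmTreat and 2980 to 3194 when each library was left out. Up-regulated neighbours numbered 4, against 2 with glmTreat, 6 with no filter and 4 to 6 when each library was left out. The set held 107 CPM of the library totals at 5 h and 11.9 at 0 h, which fell to 44.6 and 3.06 for its models with at least 20 reads in each ArR_5h library; without the 10 most abundant models the 0 h value was 13.4. Leaving out each library gave 98.2 to 116 at 5 h and 11.3 to 12.6 at 0 h. A replicate block gave 3006 calls over all models, 41 of 41 in the set, a median log2 fold change of 3.12 and 4 up-regulated neighbours. Libraries of the same number correlated at 0.0131, 0.015 and 0.0638 in their deviations from the group means, which does not show pairing.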

Other observations

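Non-evm models have running numbers too, although their positions were not used here and consecutive numbers need not be adjacent. These values were looked up after the data were seen. Among the 30 non-evm models of the set there were 2 pairs with consecutive numbers, those of 2159 and 654 bases and those of 2612 and 1148 bases. Of the 56 other non-evm models next in number to a model of the set, 37 were tested, of which 8 were up-regulated, 5 down-regulated and 24 not called. This was 21.6% up-regulated, beside 12.5% of all 2418 tested non-evm models. The 2418 include the tested models of the set, which the 37 leave out. Their median log2 fold change was −0.04.

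The pair of 2612 and 1148 bases lay in a run of 5 consecutive numbers that all had more reads at 5 h than at 0 h in every library. The model of 7684 bases before them rose from 50, 42 and 62 reads to 224, 191 and 168 reads in replicates 1, 2 and 3, a log2 fold change of 1.93 ± 0.17 (SE; edgeR, adjusted p = 7.95e-06). The model of 546 bases after them had 0, 1 and 0 reads at 0 h and 5, 6 and 8 reads at 5 h. That of 504 bases, given above as just outside the limit at 5 h, was the last of the run. Whether these models share reads or belong to the same transcript was not tested.

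Other models consecutive in number went in opposite directions. Beside the model of 1304 bases, with 2 reads in all at 0 h and 83 at 5 h, a model of 2035 bases fell from 108, 98 and 155 reads to 14, 12 and 12 reads, by 3.22 on the log2 scale (SE 0.21; edgeR, adjusted p = 1.54e-06).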
